A study of Homo sapiens with 14 samples.

Results

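The centromere and kinetochore genes CENPA, CENPE, CENPF and NDC80 were followed by their occupancy with RNA polymerase II (RNAPII). They were taken by name, and 3 of the 4 (CENPE, CENPF and NDC80) have a row among the 12411 nuclear genes of the deposited table. CENPA, which encodes the histone H3 variant of centromeres, was not analysed here: no listed row overlaps its RefSeq span on chromosome 2 (26786056 to 26794589, hg38), and the nearest listed gene, SLC35F6, lies 4825 bp away. The cells were BJ hTERT, a telomerase-immortalised line of human foreskin fibroblasts, and the assay was ChIP-seq, in which chromatin bound by RNAPII is precipitated and sequenced. An antibody to the N-terminal part of the subunit RPB1 gave total RNAPII, and an antibody to RPB1 carrying phosphate on serine 2 of the repeats in its tail (Ser2) gave a form found on elongating polymerase. For each antibody, cells given an ATR inhibitor (ATRi) and cells given the vehicle DMSO had 1 library each at 16, 19 and 22 h. There was also 1 library per antibody at 14 h for which the sample labels name no treatment, which makes 14 libraries in 14 groups. The column headers of the deposited values mark the 14 h libraries CTR, with no further explanation. The labels name neither the inhibitor nor its dose, and do not say what the hours count from; the series title places the experiment in S phase.

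The kinetochore is the protein structure that joins a chromosome to spindle microtubules during mitosis. It is built on centromeric chromatin carrying CENP-A, on which a constitutive network of CENP proteins sits through the cell cycle. The KNL1, MIS12 and NDC80 complexes form its outer plate, and the NDC80 complex binds the microtubule. CENP-E is a kinesin motor of the outer corona that moves chromosomes towards the spindle equator, and CENP-F is a large coiled-coil protein of the same corona. All of these serve cell division, and many genes of this kind are known to be transcribed most in late S, G2 and M phases. DREAM and MuvB complexes act on many such promoters through an element called the cell cycle genes homology region, often together with CCAAT boxes bound by NF-Y.

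The promoters of the 3 genes are shown because the genes are known as cell-cycle genes and their RNAPII changed between the hours. Each stretch runs from 130 bases before to 20 bases after the RefSeq start (GRCh38.p14, strand of the gene). Capitals mark CCAAT, or either of 2 spellings of the homology region, TTTGAA and TTCGAA, searched on both strands.
CENPE, chr4:103198324-103198473, minus strand: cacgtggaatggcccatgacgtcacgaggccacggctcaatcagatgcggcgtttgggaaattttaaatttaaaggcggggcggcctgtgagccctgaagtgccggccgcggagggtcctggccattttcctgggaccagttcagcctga
CENPF, chr1:214603065-214603214, plus strand: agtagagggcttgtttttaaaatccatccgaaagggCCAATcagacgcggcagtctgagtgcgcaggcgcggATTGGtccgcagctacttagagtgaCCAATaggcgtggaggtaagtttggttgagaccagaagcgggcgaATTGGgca
NDC80, chr18:2571427-2571576, plus strand: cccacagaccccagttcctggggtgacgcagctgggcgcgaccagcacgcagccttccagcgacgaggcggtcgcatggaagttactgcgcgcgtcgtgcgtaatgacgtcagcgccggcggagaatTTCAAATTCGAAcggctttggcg
CENPE holds none of the 3 motifs in its window of 250 bases before to 50 after the start. CENPF holds CCAAT at 4 places, and TTTGAA at bases 41 to 46 after the start, outside the stretch shown. NDC80 holds TTTGAA on the opposite strand across its start, from base -3 to base 3, directly followed by TTCGAA at bases 4 to 9, and no CCAAT. Among all 35116 RefSeq promoters of this length, 34.6% hold CCAAT, 16.4% hold TTTGAA or TTCGAA, and 6.38% hold both kinds. Among 33 promoters of other centromere and kinetochore genes, 19 hold CCAAT, 12 hold TTTGAA or TTCGAA, and 9 hold both. A match is a description of these letters, not evidence of a bound site.

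CENPE (ENSG00000138778) was listed with a span of 92604 bp on chromosome 4, 103105806 to 103198409. CENPF (ENSG00000117724) has a span of 61394 bp on chromosome 1, 214603195 to 214664588, and NDC80 (ENSG00000080986) a span of 45125 bp on chromosome 18, 2571511 to 2616635. No listed gene overlaps any of the 3 spans, so their reads are not shared with a listed neighbour's, although the listed start of NDC80 lies 2 bp from METTL4, which is transcribed away from it. Values are RPM (reads per 1000000 reads of the library) over the whole span, exons and introns together, so promoter-proximal and gene-body RNAPII are not separated.

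Sequencing depth and enrichment differed between libraries. Totals were 17181179 to 62368915 reads, and each member held 406 to 4240 reads, which gives 95% counting intervals of 3.02% to 9.85% of the value on either side. The share of reads within listed genes was 70.8% (ATRi) and 72.0% (DMSO) in total RNAPII at 19 h and 65.6% and 63.5% in Ser2, the highest of all libraries. At 22 h it was 57.4% (ATRi) and 42.8% (DMSO) in total RNAPII, and 44.3% and 40.0% in Ser2. RPM of nearly every gene moves with this share, so each value is also given relative to the median gene of its library. Without a spike-in value, a change of all genes together cannot be told apart from a change in the immunoprecipitation. Of the fibroblast markers, 13 of 16 have a row and summed to 1124 to 3624 RPM. Keratinocyte, endothelial, blood and melanocyte lists have 1 of 7, 2 of 5, 0 of 5 and 1 of 4 markers with a row. KRT14 had 0.236 to 1.18 RPM, VWF and TEK summed to 27.9 to 87.7 RPM, and MITF had 36.5 to 75.5 RPM. In RPM per kilobase the median marker averaged 3.07 for fibroblast, 0.143 for keratinocyte, 0.217 for endothelial and 0.259 for melanocyte lists.

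All 3 genes carried the most RNAPII per library at 19 or 22 h and the least at 14 or 16 h. In ATRi cells CENPE had 60.3, 71.6 and 90.7 RPM of total RNAPII at 16, 19 and 22 h, against 43.4, 67.3 and 59.8 RPM in DMSO cells at those hours and 40.8 RPM at 14 h. CENPF had 56.8, 74.9 and 91.5 RPM in ATRi cells, against 46.7, 80.0 and 54.3 RPM in DMSO cells and 30.8 RPM at 14 h. NDC80 had 41.7, 69.7 and 67.7 RPM in ATRi cells, against 34.8, 68.4 and 39.1 RPM in DMSO cells and 27.1 RPM at 14 h. In DMSO cells each gene was highest at 19 h, whereas in ATRi cells CENPE and CENPF were highest at 22 h and NDC80 was about level at 19 and 22 h.

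In Ser2 each gene was highest at 19 h in both treatments, and at 16 and 22 h the treatments differed less than in total RNAPII. CENPE had 42.6, 68.8 and 68.0 RPM in ATRi cells, against 38.1, 68.7 and 55.5 RPM in DMSO cells and 40.7 RPM at 14 h. For CENPF the values were 38.2, 71.0 and 65.0 RPM in ATRi cells, against 32.6, 71.8 and 52.3 RPM in DMSO cells and 29.3 RPM at 14 h. For NDC80 they were 24.0, 64.7 and 43.5 RPM in ATRi cells, against 23.7, 66.8 and 34.7 RPM in DMSO cells and 22.4 RPM at 14 h. The 19 h libraries stood above those of 14 and 16 h for every gene and both antibodies, and NDC80 alone dropped by over 20 RPM between 19 and 22 h in both Ser2 treatments.

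**Figure D1:**
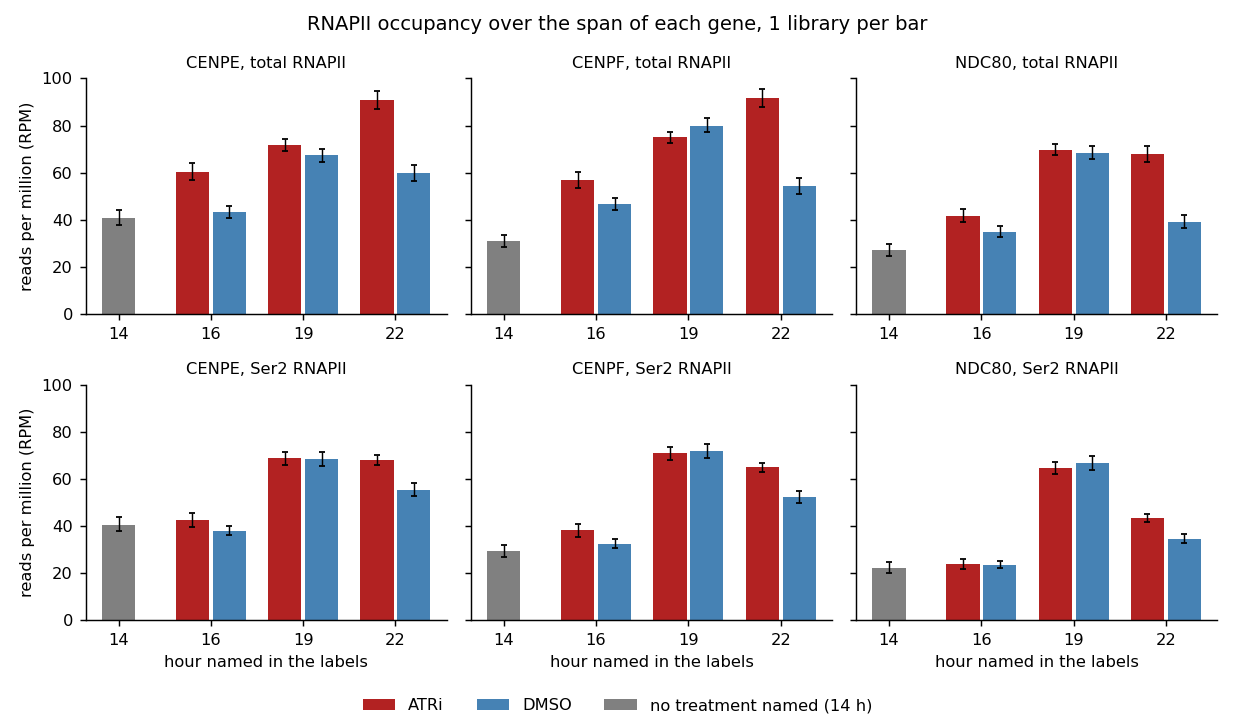
Occupancy in RPM (vertical axis, 0 to 100) of CENPE, CENPF and NDC80 by hour, total RNAPII above and Ser2 below. Each bar is 1 library (ATRi red, DMSO blue, the 14 h library grey) with its 95% counting interval. At 22 h total RNAPII the ATRi bars stand at 90.7, 91.5 and 67.7 RPM, above the DMSO bars at 59.8, 54.3 and 39.1 RPM.

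Per length, the 3 genes were ordinary members of the table. Their mean occupancy over the 14 libraries, in RPM per kilobase, lay at the 39.8th percentile of the listed genes for CENPE, the 61.6th for CENPF and the 65.0th for NDC80. Against the density of reads outside listed genes, the lowest level was that of CENPE in Ser2 of DMSO cells at 16 h, 1.47 times that density, and the highest that of NDC80 in total RNAPII of DMSO cells at 19 h, 12.4 times. Over the 3 genes, Ser2 levels at 16 h were 1.47 to 2.28 times the density outside genes. Reads at the density found between genes would thus make up a large part of the Ser2 value at 16 h, which draws RPM ratios to that hour towards 1.

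Relative to the median gene, every series stood highest at 22 h except NDC80 in Ser2 of DMSO cells, which was highest at 19 h. The steps between the hours differed between the 3 genes. With 1 library per group these courses carry no test. NDC80, the microtubule-binding subunit, stood higher at 19 h than at 16 h in all 4 series of treatment and antibody. In total RNAPII it stood 0.69, 0.99 and 1.25 above the median gene (log2) at 16, 19 and 22 h in ATRi cells, and 0.49, 0.93 and 0.96 above it in DMSO cells. In Ser2 it stood 0.52, 1.08 and 1.10 above it in ATRi cells, and 0.59, 1.19 and 0.94 above it in DMSO cells. In the total RNAPII of ATRi cells its difference from 19 to 22 h (0.26) was nearly as large as that from 16 to 19 h (0.30). CENPE, the corona kinesin, stood higher at 22 h than at 19 h in all 4 series. In total RNAPII it stood 1.22, 1.03 and 1.67 above the median gene in ATRi cells, and 0.80, 0.91 and 1.57 above it in DMSO cells. In Ser2 it stood 1.33, 1.17 and 1.73 above it in ATRi cells, and 1.26, 1.23 and 1.61 above it in DMSO cells. With no density outside genes taken off, CENPE was thus lower or about level at 19 h than at 16 h in 3 of the 4 series. NDC80 was higher in all 4.

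CENPF lay between them. In total RNAPII it stood 1.13, 1.09 and 1.68 above the median gene in ATRi cells, and 0.91, 1.16 and 1.43 above it in DMSO cells, after 0.60 at 14 h. In Ser2 the values were 1.18, 1.21 and 1.67 in ATRi cells and 1.04, 1.30 and 1.53 in DMSO cells, after 0.79 at 14 h. It was higher at each later hour in both DMSO series, and in ATRi cells it stood apart only at 22 h. At 14 h CENPE stood at 1.00 in total RNAPII and 1.26 in Ser2, and NDC80 at 0.42 and 0.41, so of the 3 only CENPF was more than 0.2 higher at 16 h in DMSO than at 14 h with both antibodies. NDC80 was 0.07 higher in total RNAPII and 0.18 in Ser2, and CENPE differed by -0.20 and 0.00.

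**Figure D2:**
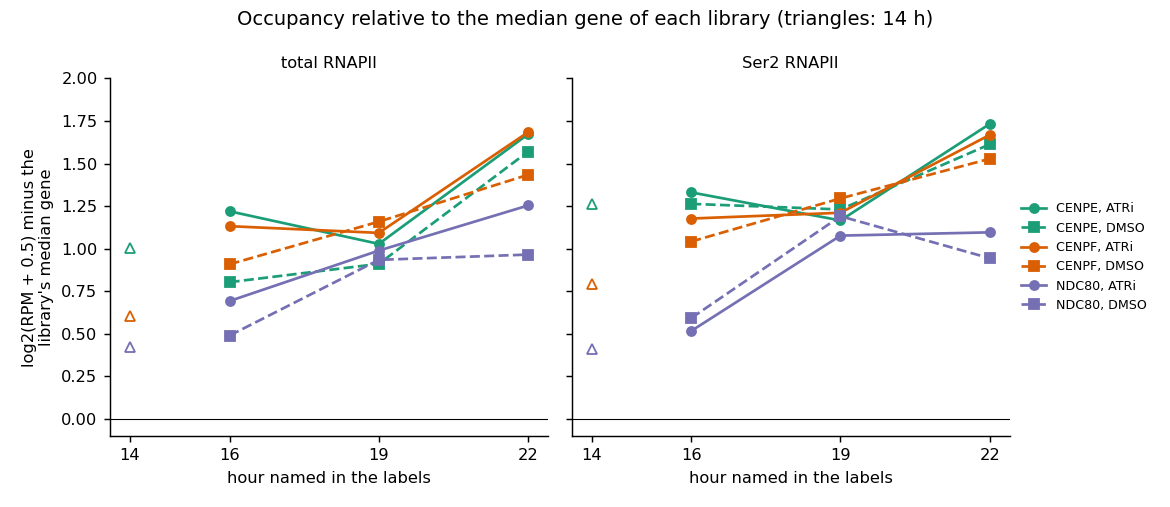
Log2(RPM + 0.5) minus that of the library's median gene (vertical axis) by hour for total RNAPII (left) and Ser2 (right). Circles and solid lines are ATRi, squares and dashed lines DMSO, open triangles the 14 h libraries, 1 library per point. NDC80 (purple) is higher at 19 than at 16 h, and CENPE (green) higher at 22 than at 19 h, in both treatments and with both antibodies. In total RNAPII of ATRi cells NDC80 is higher again at 22 h (1.25 against 0.99 at 19 h).

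As a fixed measure of these steps, a gene was counted when it was at least 1.2-fold higher at the later hour, relative to the median gene, in both treatments. This measure was chosen with the values in view and is a description with no test. From 16 to 19 h NDC80 alone passed, with both antibodies, where 15.3% of all genes passed in total RNAPII and 25.3% in Ser2. From 19 to 22 h CENPE passed with both antibodies and CENPF in total RNAPII, where 10.4% of all genes passed in total RNAPII and 18.6% in Ser2. The DMSO step of CENPF in total RNAPII was 1.21-fold, just inside the limit, and in Ser2 it was 1.18-fold, just outside. With the density outside genes taken off before the comparison, the difference of CENPE from 19 to 22 h was 0.81 and 0.85 (log2, ATRi and DMSO) in total RNAPII and 0.80 and 0.55 in Ser2. That of NDC80 from 16 to 19 h was 0.59 and 0.62 in Ser2, against 0.25 and -0.04 from 19 to 22 h. In total RNAPII NDC80 differed by 0.21 and 0.41 from 16 to 19 h and by 0.41 and 0.29 from 19 to 22 h. Its ATRi step from 16 to 19 h thus fell below the 1.2-fold limit, and both steps from 19 to 22 h lay above it. The timing of NDC80 in total RNAPII thus depended on that subtraction. CENPE and CENPF moved with it too. CENPE differed from 16 to 19 h by -0.23 and 0.35 (ATRi and DMSO) in total RNAPII and by -0.03 and 0.35 in Ser2. CENPE was thus higher at 19 h in both DMSO series on that scale. CENPF differed from 19 to 22 h by 0.77 and 0.56 in Ser2, both above the limit. The share of all genes past the limit was not counted on that scale, so these steps have no background to be read against.

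Over 35 other centromere and kinetochore genes with a row, of 46 looked for, the same measure took 4 from 16 to 19 h in total RNAPII (HJURP, CENPL, CENPN and SPDL1) and 12 in Ser2. Among these 12 were the same 4 genes. From 19 to 22 h it took 0 in total RNAPII and 1, CENPP, in Ser2, where 10.4% and 18.6% of all genes passed. The shares from 16 to 19 h, 4 and 12 of 35, stand beside 15.3% and 25.3% of all genes.

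The comparison of 22 h with 16 h asked which genes gained RNAPII across the treated hours. In Ser2 all 3 genes were higher at 22 h. NDC80 rose by 0.69 ± 0.10 (log2, moderated SE, 2 libraries an hour), CENPF by 0.72 ± 0.09 and CENPE by 0.60 ± 0.09, with limma adjusted p of 8.8e-05, 4.6e-05 and 1.4e-04. On this scale 39.0% of 11989 genes were called higher and 0.918% lower, because the median gene itself moved by 0.21. With each library centred on its median gene, NDC80 rose by 0.47 ± 0.09, CENPF by 0.49 ± 0.08 and CENPE by 0.38 ± 0.08 (limma adjusted p = 7.3e-04, 3.4e-04 and 0.0024), where 10.2% of genes were called higher and 10.5% lower. The genes thus gained Ser2 beyond the median gene.

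With treatment as a term in the fit, these p-values rest on how the ATRi to DMSO difference varies between hours, not on replicates of an hour. With the density outside genes taken off and the median centred, CENPE still passed (limma adjusted p = 0.0457), while CENPF (0.69, adjusted p = 0.0616) and NDC80 (0.71, adjusted p = 0.0508) did not. On that scale 137 of 11989 genes were called higher and 63 lower.

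In total RNAPII the same contrast gave 0.43 ± 0.23 for NDC80, 0.45 ± 0.23 for CENPF and 0.52 ± 0.22 for CENPE, and none passed (limma adjusted p = 1.00). With limma 0% of 12031 genes were called in either direction, and 72 had an unadjusted p under 0.05 upward and 283 downward. edgeR also called 0 genes, with an unadjusted p under 0.05 for 453 upward and 538 downward, and DESeq2 called 25 higher and 25 lower. The 2 libraries of 22 h went apart. Without the DMSO library of 22 h NDC80 was at 0.75, CENPF at 0.78 and CENPE at 0.68, against 0.16 for the median gene. Without the ATRi library of 22 h the values were 0.11, 0.12 and 0.36, against -0.28 for the median gene. Either fit leaves 1 library at 22 h.

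The other genes of the centromere and kinetochore, taken by role, gained Ser2 in part. Of 35 tested, 22 were higher and 0 lower at 22 h, where 39.0% of all genes were higher, with a median of 0.33 (log2) against 0.21 for all genes. With median centring 10 were higher and 2 lower, where 10.2% of all genes were higher and 10.5% lower. Without centring, leaving out the ATRi library of 16 h or that of 22 h gave fewer than these 22 calls, and fewer calls over all genes too. Either fit leaves 1 library at that hour. Of the genes for CENP-A and its loading, 2 of 3 were higher, led by HJURP, the chaperone that deposits CENP-A, with 1.08 ± 0.10 (limma adjusted p = 2.5e-06). In the constitutive network 6 of 13 were higher, CENPI with 0.60, CENPL with 0.54 and CENPN with 0.49 among them. CENPH and CENPP, at -0.06 and -0.0009, were the 2 genes called lower with median centring (-0.29 and -0.22). With edgeR and with DESeq2 0 of the 35 were called lower. The median of this network, 0.15, was below that of all genes, and its share of calls is close to the 39.0% of all genes.

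In the outer plate, besides NDC80, 3 of 6 were higher: KNL1, the scaffold for checkpoint proteins, by 0.61, MIS12, which links the plate to the inner network, by 0.45, and PMF1 of the same complex by 0.30. The share of this group and its median of 0.22 are close to those of all genes (39.0% and 0.21). ZWINT, a partner of KNL1, was at -0.01 ± 0.13. Of the genes for microtubule attachment and corona, beside CENPE and CENPF, 6 of 7 were higher, among them SPDL1, the dynein adaptor Spindly, by 0.61 and SKA3 of the microtubule-tracking SKA complex by 0.55. Of the checkpoint and cohesion genes, 5 of 6 were higher, led by BUB3 with 0.83 ± 0.11 and the kinase BUB1 with 0.64 ± 0.10 (limma adjusted p = 3.4e-05 and 1.5e-04), and MAD1L1 was at 0.16. With median centring the counts were 1 of 3, 3 of 13, 1 of 6, 2 of 7 and 3 of 6 in the order of these groups, where 10.2% of all genes were higher. HJURP, BUB3, BUB1, CENPH, ZWINT and CENPP were named as the 3 highest and 3 lowest of the list; the others were named after their values were seen.

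**Figure D3:**
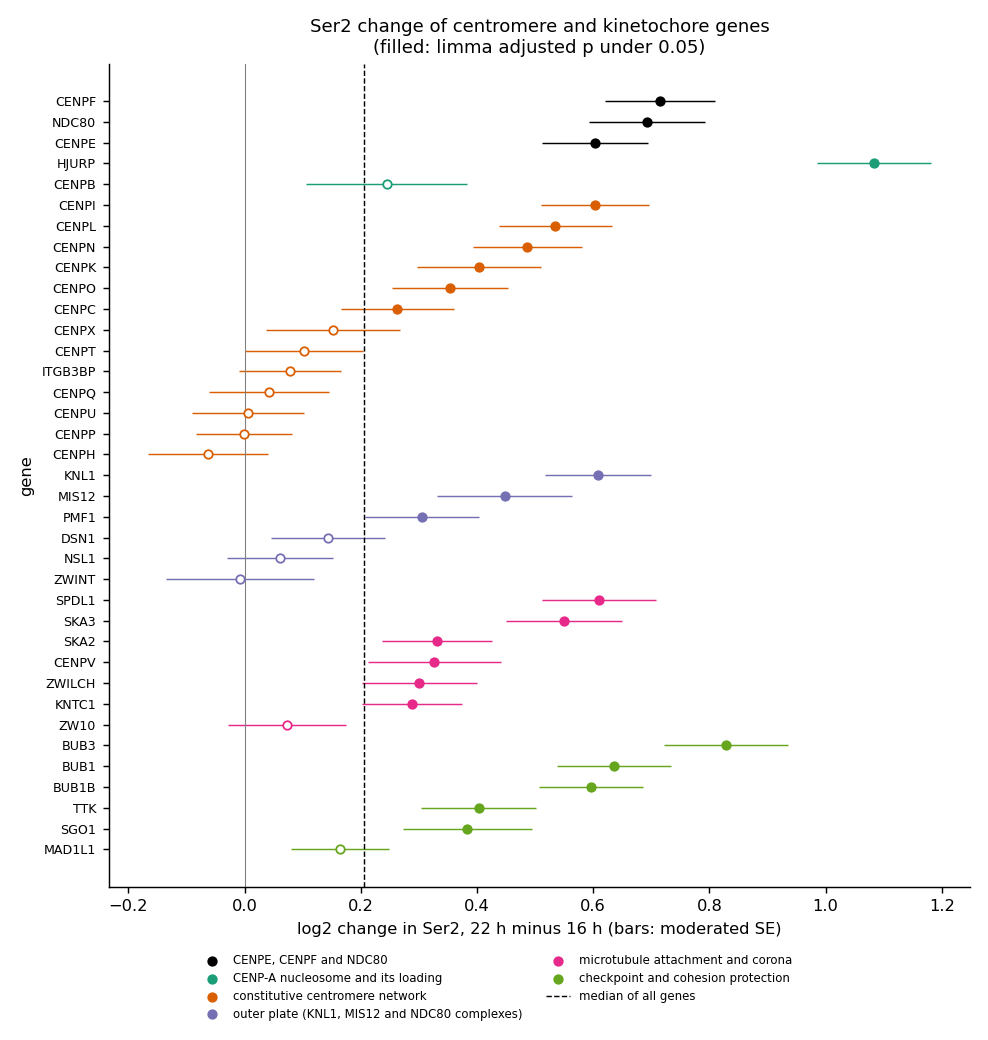
Log2 change in Ser2, 22 h minus 16 h (horizontal axis, bars are moderated SE), of CENPE, CENPF, NDC80 and 34 of the 35 other centromere and kinetochore genes, coloured by role and sorted within it. Filled points have a limma adjusted p under 0.05 and the dashed line is the median of all genes at 0.21. HJURP lies highest at 1.08 and CENPH lowest at -0.06.

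Genes of DNA replication went the other way. Of 15 tested in Ser2, 0 were higher and 4 lower at 22 h: E2F1, a transcription factor of S-phase entry, fell by 0.66, and the helicase subunits MCM6, MCM2 and MCM3 fell by 0.49, 0.37 and 0.34. Of all genes, 39.0% were called higher and 0.918% lower on this scale. The median of the 15 was -0.17, and with median centring 13 of them were lower, where 10.5% of all genes were. In total RNAPII their median was -0.76 and 0 of 15 lay above the median gene, while the median of the 35 kinetochore genes was -0.02 against -0.06 for all genes. There 20 of the 35 lay above the median gene: 2 of 3 genes for CENP-A and its loading, 6 of 13 of the constitutive network, 3 of 6 of the outer plate, 3 of 7 for microtubule attachment and 6 of 6 for checkpoint and cohesion. None of these genes passed the test in total RNAPII.

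The comparison of ATRi with DMSO asked how inhibition of ATR, the kinase that answers stalled replication, changed RNAPII on these genes. The log2 ratios of RPM were highest at 22 h, lower at 16 h and near 0 at 19 h. In total RNAPII the log2 ratios of ATRi to DMSO at 16, 19 and 22 h were 0.48, 0.09 and 0.60 for CENPE. They were 0.28, -0.09 and 0.75 for CENPF, and 0.26, 0.03 and 0.79 for NDC80. The median ratio of all genes was 0.05, -0.03 and 0.49, so most genes shared much of the ratio at 22 h.

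Relative to the median gene, CENPE stood 0.42, 0.12 and 0.10 higher in ATRi than in DMSO cells at 16, 19 and 22 h in total RNAPII. CENPF stood 0.22 and 0.25 higher at 16 and 22 h and -0.07 at 19 h, and NDC80 stood 0.20, 0.05 and 0.29 higher. The difference was therefore widest at 16 h for CENPE. With the density outside genes also taken off, the values at 16, 19 and 22 h were 0.71, 0.13 and 0.09 for CENPE, 0.29, -0.07 and 0.13 for CENPF, and 0.26, 0.06 and 0.18 for NDC80. On that scale each gene differed most at 16 h.

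In Ser2 the log2 ratios at 16, 19 and 22 h were 0.16, 0.00 and 0.29 for CENPE, 0.23, -0.02 and 0.31 for CENPF, and 0.02, -0.05 and 0.33 for NDC80. The median ratio of all genes was 0.06, 0.06 and 0.16. Relative to the library's median gene the 3 genes lay between -0.11 and 0.15 at every hour, with all 3 below 0 at 19 h. With the density outside genes also taken off, CENPE stood at 0.30, -0.08 and 0.17 at 16, 19 and 22 h. On that scale CENPF stood at 0.28, -0.11 and 0.10, and NDC80 at -0.12, -0.15 and 0.14. Of the 3 genes, CENPE and NDC80 had higher RPM in ATRi at all 3 hours in total RNAPII, as 18.0% of all genes did, and in Ser2 CENPE alone did, as 42.6% of all genes did. The Ser2 share is thus near that of all genes.

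**Figure D4:**
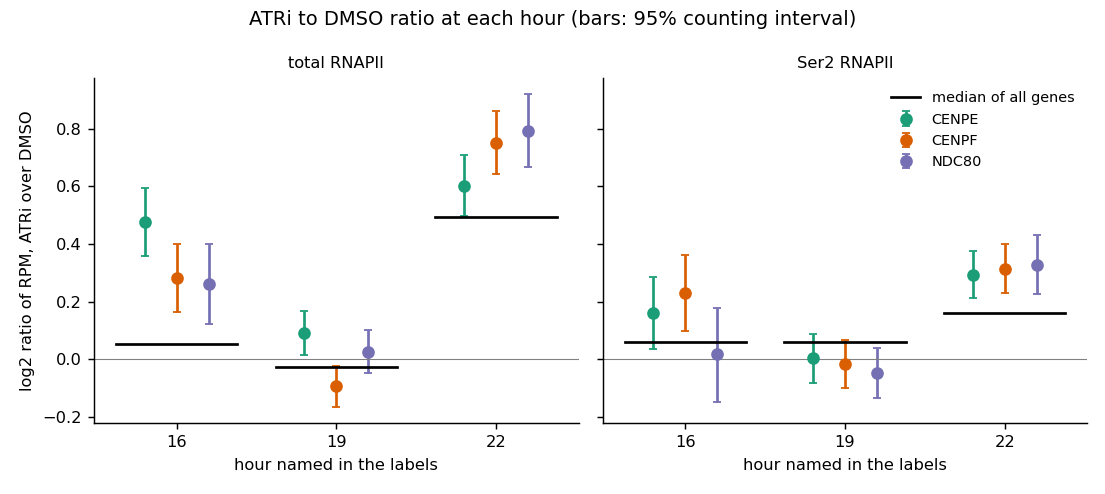
Log2 ratio of RPM, ATRi over DMSO (vertical axis), at 16, 19 and 22 h for CENPE, CENPF and NDC80 in total RNAPII (left) and Ser2 (right). Bars are 95% counting intervals of 1 library against 1, and black lines the median of all genes. At 22 h in total RNAPII the 3 genes lie at 0.60 to 0.79 and the median of all genes at 0.49, and at 19 h all lie within 0.10 of 0.

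Over the 3 hours, none of the 3 genes passed the test for ATRi. In total RNAPII the mean change was 0.39 ± 0.18 for CENPE, 0.31 ± 0.19 for CENPF and 0.36 ± 0.19 for NDC80 (moderated SE, 3 pairs of libraries, limma adjusted p = 0.767). Limma called 0% of 12031 genes, while 204 upward and 0 downward had an unadjusted p under 0.05. edgeR called 0 (27 upward and 24 downward unadjusted) and DESeq2 0 (21 upward and 36 downward). In Ser2 the mean change was 0.15 ± 0.08 for CENPE, 0.17 ± 0.08 for CENPF and 0.10 ± 0.08 for NDC80 (limma adjusted p = 0.241, 0.197 and 0.477), and 0% of 11989 genes were called, while 2630 upward and 25 downward had an unadjusted p under 0.05. edgeR also called 0, with unadjusted counts of 522 upward and 712 downward. DESeq2 called 0 (150 upward and 479 downward), but it gave an adjusted p for only 1297 genes. CENPE, CENPF and NDC80 had none, so that fit gives no call for them. The direction of NDC80 in Ser2 turned with median centring (-0.01). An exact two-sided sign-flip test of 1 quantity over 3 pairs has 0.25 as its smallest p.

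Of the 35 other centromere and kinetochore genes, 0 passed in either antibody. The median gene was exceeded by 26 of 35 in total RNAPII, with a list median of 0.24 against 0.18 for all genes. In Ser2 it was exceeded by 21 of 35, with a list median of 0.12 against 0.10. The 15 replication genes lay close to all genes, with a median of 0.18 in total RNAPII and 0.10 in Ser2.

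The ATRi effect was smaller in Ser2 than in total RNAPII for each gene, but the difference itself did not pass. It was -0.24 ± 0.17 for CENPE, -0.14 ± 0.21 for CENPF and -0.26 ± 0.21 for NDC80 (log2, Ser2 minus total, moderated SE, limma adjusted p = 1.00). Limma called 0% of 12013 genes, and 4 upward and 5 downward had an unadjusted p under 0.05; edgeR called 0 (17 upward and 10 downward) and DESeq2 0 (1 upward and 6 downward). The ratio of Ser2 to total RPM for NDC80 was 0.575, 0.928 and 0.643 at 16, 19 and 22 h in ATRi cells, against 0.681, 0.976 and 0.887 in DMSO cells. For CENPE it was 0.706, 0.961 and 0.749 in ATRi cells, against 0.878, 1.02 and 0.928 in DMSO cells. For CENPF it was 0.674, 0.948 and 0.710 in ATRi cells, against 0.698, 0.898 and 0.962 in DMSO cells. Over all genes the fitted difference between antibodies had a median of -0.06. The median ATRi to DMSO log2 ratio of all genes at 22 h was 0.16 in Ser2 and 0.49 in total RNAPII. These medians were 0.06 and 0.05 at 16 h, and 0.06 and -0.03 at 19 h. Much of a lower ratio of Ser2 to total at 22 h was thus shared by most genes. The ratio of Ser2 to total RPM was lower in ATRi cells at each hour for NDC80 and CENPE, and at 16 and 22 h for CENPF. Relative to the median gene of each library, Ser2 minus total (log2) for CENPE at 22 h was 0.060 in ATRi cells and 0.043 in DMSO cells, which turns that direction, and for CENPF at 19 h it was 0.12 in ATRi cells and 0.14 in DMSO cells. The 2 antibodies have separate scales, so the ratios compare libraries and not amounts of phosphorylation.

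The profiles of the 3 genes over the 14 libraries, centred on the median gene and on each antibody's mean, were most alike for CENPF with NDC80 (Pearson r = 0.82) and CENPE (0.80), and least for CENPE with NDC80 (0.49). Among 10489 genes of at least 1 RPM on average with each antibody, with a median r of -0.02, the 8 most like the mean profile of the 3 genes were CDCA2, ASPM and CEP55 (r = 0.97 each), CCNB1 (0.97), BUB1 and CIT (0.96), and INCENP and CCNF (0.95). CCNB1 encodes cyclin B1, INCENP the scaffold of the chromosomal passenger complex at inner centromeres, BUB1 a kinetochore checkpoint kinase, ASPM a spindle pole protein, CCNF cyclin F, CDCA2 a chromatin-bound partner of a mitotic phosphatase, CIT citron kinase and CEP55 a midbody protein, the last pair serving cytokinesis. Taken singly, CENPF was most like CCNB1 (0.99), CENPE most like FBXO48 (0.96), DLGAP5 (0.95) and the mitotic kinase PLK1 (0.94), and NDC80 most like CKAP2 (0.99), the spindle factor TPX2 (0.98) and topoisomerase gene TOP2A (0.98). The libraries share depth and enrichment between genes, so these coefficients are descriptions.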

How the data were processed

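The authors deposited 1 table of RPM, reads per 1000000 library reads, over whole gene spans, for 12425 genes and 14 libraries. The submitters' processing notes name Bowtie2 2.3.3.1, SAMtools 1.4 and hg38; the counting tool, duplicates and any input or spike-in are not given in the sources used here. The extraction protocol names only histone antibodies, so the antibodies are those of the sample labels.

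Here, whole reads and library totals were recovered from the RPM steps (100.0% of values whole within 0.01 reads). In the Ser2 ATRi library of 22 h the smallest value was taken as 2 reads. The density outside listed genes is a total minus the reads in genes over the remaining genome. Counting intervals are exact at 95% and cover counting error only. Genes were named by overlap with RefSeq spans (10736 of 12411 nuclear genes, 86.4%), and 14 mitochondrial genes were left out.

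limma 3.58.1 (trend, two-sided, Benjamini-Hochberg over all genes, threshold 0.05) was run on log2(RPM + 0.5) for genes averaging at least 1 RPM. A trial run used simulated counts with no difference in enrichment between libraries, so it does not cover the differences seen here. ATRi effects used hour as a block over 6 libraries per antibody; their difference between antibodies used antibody-by-hour blocks over 12; 22 h against 16 h used treatment as a term. p-values measure only the spread between these libraries. edgeR 4.0.16 and DESeq2 1.42.0 on recovered reads were alternatives. Named genes were all members, every called gene of a list if at most 6 and otherwise its 3 highest and 3 lowest, and the 8 genes of the most similar profile; other genes of the roles were named after their values were seen. 1 gene of the kinetochore list is counted but not reported here by name. Members and lists were chosen with earlier results of these data known.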

Additional observations from a re-analysis of the deposited data

Results flagged for a closer look

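The ATRi to DMSO log2 ratio of RPM had the opposite sign at 19 h to that at 16 and 22 h for CENPF in total RNAPII (-0.094 at 19 h, counting interval -0.17 to -0.02, against 0.28 at 16 h and 0.75 at 22 h). The same held for CENPF in Ser2 (-0.017, interval -0.10 to 0.07, against 0.23 and 0.31) and for NDC80 in Ser2 (-0.046, interval -0.13 to 0.04, against 0.017 and 0.33). With 1 library per group the difference between hours was not tested. The intervals of the Ser2 values at 19 h include 0, and the 19 h libraries also held the highest share of reads in listed genes. The part of that share in these results was not tested.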

How the results depend on the processing

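The 3 genes had 204 single-gene values under the alternatives (pseudocount, filter, centring, background, edgeR, DESeq2, libraries left out). Of these, 193 kept their direction and their side of the threshold. For ATRi in Ser2, DESeq2 gave the 3 genes no adjusted p, so CENPE and CENPF count there by direction only. The ATRi change of NDC80 in Ser2 (0.10) turned to -0.012 with median centring, -0.036 with background subtracted and median centring, -0.0051 with edgeR and -0.017 with DESeq2, and ran from -0.015 (without 22 h) to 0.17 with 1 hour left out. The difference between antibodies for CENPF ran from -0.24 to 0.013 (without 22 h). The cause was not tested.

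With background subtracted, counts of called genes became 122 higher and 47 lower for ATRi in total RNAPII, 73 and 122 for 22 h against 16 h in total RNAPII, and 63 lower in Ser2 (110 in the table's own scale). DESeq2 gave 25 and 25 for the hours in total RNAPII. For the hours in Ser2, against 4678 higher and 110 lower, median centring gave 1221 and 1262, edgeR 1160 and 911, DESeq2 623 and 597, and background subtraction with median centring, added after seeing the data, 137 and 63, with 1 of the 3 genes called. The 35 other kinetochore genes then had 10 higher and 2 lower (median centring), 5 (background with centring), 10 (edgeR) and 7 (DESeq2) higher.

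Leaving out 1 hour gave 0 to 846 genes higher (846 without 19 h and 38 without 16 h) and 0 to 6 lower for ATRi in Ser2. Leaving out 1 library gave 0 to 401 higher and 0 to 4089 lower for the hours in total RNAPII (401 and 34 without DMSO at 22 h, 102 and 4089 without ATRi at 22 h), with 0 to 3 of the 3 genes called, and in Ser2 1628 to 4830 higher (1628 without ATRi at 22 h, 2401 without ATRi at 16 h), 20 to 166 lower and 10 to 22 of the 35 kinetochore genes. All 3 genes stayed called in Ser2 throughout these. Of the 8 genes of most similar profile, 4 stayed without taking off the median gene and 5 with either antibody alone. With 1 library per group no value carries a replicate error, and counting intervals cover depth alone.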

Other observations

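METTL4, whose start lies 2 bp from that of NDC80, changed in Ser2 by 0.37 ± 0.11 from 16 to 22 h (log2, limma adjusted p = 0.0113), against 0.69 ± 0.10 for NDC80, on a scale where 39.0% of all genes were called higher. With median centring the call of METTL4 was lost (0.14, adjusted p = 0.299), while NDC80 was at 0.47. BDH2, the listed gene nearest to CENPE, had 0.10 ± 0.12 (adjusted p = 0.529; -0.13 with median centring), against 0.60 ± 0.09 for CENPE. Both neighbours were chosen for their position, and the difference between neighbours was not tested. Of the 8 genes of most similar profile, CCNF, which encodes cyclin F, had the largest Ser2 change at 22 h, 1.20 ± 0.09 (adjusted p = 7.0e-07), followed by CCNB1 with 0.96 ± 0.12 and INCENP with 0.94 ± 0.10. These genes were picked for their profile over the same libraries, so their changes are no separate evidence.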
